A study of Homo sapiens with 2 samples.

Results

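The circRNAs described here were the short, already catalogued ones: circles with an identifier in circBase, a public catalogue of circRNAs, whose ends lay less than 2000 bp apart in the genome. The rule used only the identifier and the span (end minus start plus 1) in the deposited table, and it found 359 of 1485 circRNAs (24.2%). The other circRNAs were 764 catalogued ones of longer span, 114 short ones with no identifier and 248 longer ones with no identifier. RNA came from SW620, a human colorectal cancer cell line. One library was from cells given HD-SB, the herb pair Hedyotis diffusa and Scutellaria barbata (spelled Sculellaria in the labels), at 1 mg/mL for 24 h, and the other from cells labelled Control, for which no vehicle is stated. Ribosomal RNA was removed and RNase R, an enzyme that degrades linear RNA, was applied before sequencing. There was 1 library per group, so no difference between them has a replicate check, and any comparison is of these libraries and not of the conditions.

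A circRNA forms when the splicing machinery joins the end of an exon back to the start of the same or an earlier exon. The closed ring has no free end, which protects it from exonucleases, and it is recognised in sequencing by reads that cross this back-splice junction. Long introns beside the circularised exons, often with inverted repeats that can pair, are known to favour back-splicing, and many circles begin at the second exon of their gene.

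The number of back-splice reads differed greatly between the libraries, and their sequencing depth is not known from the deposited values. The deposited values corresponded to 91 back-splice reads in the control and 11570 in HD-SB, and the lowest listed value was 2 reads in both. A circRNA that is not listed in a library was taken to have 0 or 1 read there. This holds only if no other filter was used. In these values 1 control read was worth 10989 CPM (counts scaled to a fixed library total) against 86.4 CPM in HD-SB. Of the 359 circRNAs, 2 came from a list of 34 intestinal epithelium genes. They were VIL1 (villin, of the brush border) with 18 HD-SB reads and ESRP1 (an epithelial splicing regulator) with 5. None came from a list of 36 markers of other cell types. In the rest of the table these lists had 5 and 2 circRNAs, and the intestinal share was 0.557% of members and 0.444% of the rest. Circles from LCK (9 HD-SB reads) and BCL11B (7), which are on neither list, were also members. The counts are too few and the lists too incomplete to check the labelled tissue.

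The sequences that distinguish these circles from the linear RNA of their genes are their back-splice junctions. The following are from abundant HD-SB circles that lie in coding sequence alone: 25 bases of the end of the last exon in lower case, then 25 bases of the start of the first exon in capitals, 5′ to 3′ on the strand of the gene. They were read from GENCODE 29 transcripts (GRCh38), at the exons whose distance equals the deposited span.
GCN1L1, chr12:120154970-120155719, minus strand, exons 29 to 31: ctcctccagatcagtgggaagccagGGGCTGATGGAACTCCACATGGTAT
CAMSAP1, chr9:135881633-135883078, minus strand, exons 2 to 3: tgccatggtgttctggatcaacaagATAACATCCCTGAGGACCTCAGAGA
LRP6, chr12:12244262-12244655, minus strand, exon 2: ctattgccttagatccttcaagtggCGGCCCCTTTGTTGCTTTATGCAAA
FKBP8, chr19:18539371-18539720, minus strand, exons 3 to 4: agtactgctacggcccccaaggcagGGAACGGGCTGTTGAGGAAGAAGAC
CACTIN, chr19:3623688-3624162, minus strand, exon 2: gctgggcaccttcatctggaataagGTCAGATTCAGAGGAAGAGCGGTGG
DOT1L, chr19:2213539-2214596, plus strand, exons 17 to 19: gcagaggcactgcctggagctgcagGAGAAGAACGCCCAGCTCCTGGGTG

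Junctions of coding circles listed in the control are shown in the same way, because these few are the ones that can be set against HD-SB. For the host printed in the table as 9-Sep, a spreadsheet date, an exon of the same length was found in SEPT9.
AFF1, chr4:87046166-87047594, plus strand, exons 2 to 3: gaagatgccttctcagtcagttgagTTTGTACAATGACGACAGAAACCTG
UBAP2, chr9:33971651-33973237, minus strand, exons 7 to 8: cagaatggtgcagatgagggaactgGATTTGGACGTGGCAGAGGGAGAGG
GAPVD1, chr9:125337018-125337591, plus strand, exons 16 to 17: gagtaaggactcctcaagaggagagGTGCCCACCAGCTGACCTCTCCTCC
CDYL, chr6:4891713-4892379, plus strand, exon 2: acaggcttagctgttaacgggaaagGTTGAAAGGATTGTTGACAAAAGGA
9-Sep (SEPT9), chr17:77402059-77402703, plus strand, exon 3: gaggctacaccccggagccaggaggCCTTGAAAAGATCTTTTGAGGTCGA

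The circle from SMARCA5, an ATPase that slides nucleosomes, is printed whole as an example of how little RNA such a ring holds. It lies at chr4:143543509-143543972 on the plus strand of GRCh38, within a span of 464 bp, and consists of exon 15 (149 nt, lower case) and exon 16 (120 nt, capitals), 269 nt in all. Its back-splice joins the last base printed to the first.
SMARCA5: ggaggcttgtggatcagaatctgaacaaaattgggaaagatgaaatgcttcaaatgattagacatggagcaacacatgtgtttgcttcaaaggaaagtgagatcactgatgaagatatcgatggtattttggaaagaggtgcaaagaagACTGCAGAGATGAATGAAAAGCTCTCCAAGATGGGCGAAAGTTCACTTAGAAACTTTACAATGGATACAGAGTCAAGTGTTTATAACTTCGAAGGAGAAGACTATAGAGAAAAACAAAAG

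Of the 359 short catalogued circRNAs, 357 were listed in HD-SB and 10 in the control. There were 349 in HD-SB alone, with 3832 reads, 8 in both and 2 in the control alone, with 5 reads. With 91 reads in the control, absence from its list says little: of the 10 members with the most HD-SB reads 2 were listed in the control, and of the top 50 only 5 were.

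The short catalogued circles took a larger share of HD-SB reads than of circRNAs. They made up 24.2% of the circRNAs listed in HD-SB but held 4120 of its 11570 reads, 35.6% (95% Clopper-Pearson interval 34.7 to 36.5, counting error only). In the control they held 27 of 91 reads, 29.7% (interval 20.5 to 40.2), and 10 of 32 listed circRNAs, 31.25% (interval 16.1 to 50.01). The HD-SB share lies inside the control interval, so a difference between the libraries was not detectable with 91 control reads. Catalogued circles of longer span held 48.1% of HD-SB reads and 62.6% of control reads (interval 51.9 to 72.6). Short circles with no identifier held 6.04% of HD-SB reads and none was listed in the control.

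Reads were spread very unevenly within the set. In HD-SB the median member had 6 reads, with quartiles of 4 and 10, a mean of 11.5 and a maximum of 373. The median was 5 reads in longer catalogued circles and 4 in short circles with no identifier. At the low end 32 members had 2 reads and 144 had 3 to 5, which together is about as many as all the others. A further 94 had 6 to 10 reads, 56 had 11 to 20, and 20 had 21 to 50. The 11 members with over 50 reads held 1397 reads, 33.9% of the set, whereas circles with over 50 reads held 13.5% of the reads of longer catalogued circles. The 10 most abundant held 32.5% of the reads of the set (interval 31.1 to 34.0), against 14.4% (interval 13.5 to 15.4) for the top 10 of the longer catalogued circles, which were more numerous. For the 114 short circles with no identifier the top 10 held 34.3% (interval 30.8 to 38.0), and their first alone held 18.2%. The top 50 of the short catalogued set held 56.7%.

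**Figure D1:**
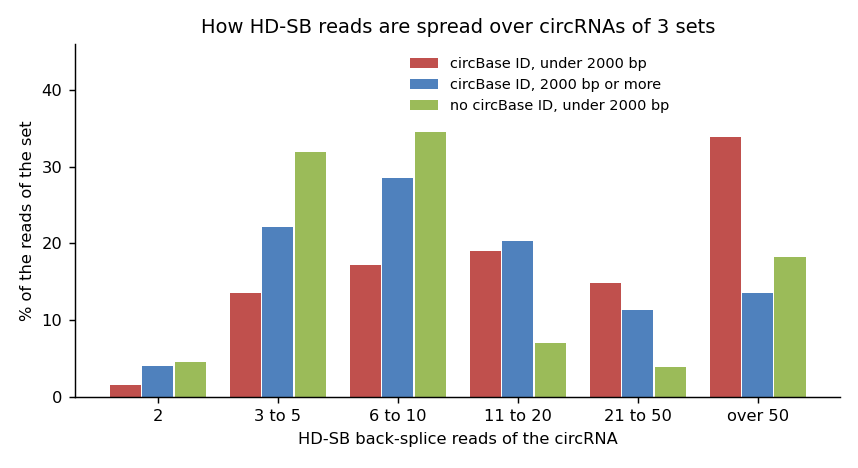
Share of HD-SB back-splice reads (vertical axis, % of the reads of each set) held by circRNAs of each read class (horizontal axis), for short catalogued, longer catalogued and short uncatalogued circRNAs in 1 library. The class over 50 reads holds 33.9% of the reads of the short catalogued set and 13.5% of the longer catalogued set.

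The most abundant member was the GCN1L1 circle (hsa_circ_0000448), from the gene of a ribosome-binding activator of the GCN2 stress kinase, now named GCN1. It had 373 reads in HD-SB, or 32238.5 CPM, and was not listed in the control. It alone was 9.05% of the reads of the set and 3.22% of the HD-SB library (interval 2.91 to 3.56). The second was from ATXN7, a subunit of the SAGA histone acetyltransferase complex whose polyglutamine expansion causes a spinocerebellar ataxia, with 211 HD-SB reads. These 2 circles stood clear of the rest: the next, from CAMSAP1, a protein that binds microtubule minus ends, had 118 in HD-SB and 2 in the control.

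Next in HD-SB came circles from CCDC134, a secreted coiled-coil protein (116 reads), and the Wnt co-receptor LRP6 (97). They were followed by PVT1, a long noncoding RNA gene beside MYC (93), and POLD1, the catalytic subunit of DNA polymerase delta (92). SMARCA5 had 88 reads and the Wnt co-receptor LRP5 had 84. None of these 6 was listed in the control. Their order is not resolved where neighbours are this close: the interval of CAMSAP1 was 0.845 to 1.22% of the library and that of CCDC134 was 0.829 to 1.20%.

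RSRC1, an arginine and serine rich splicing-related protein, gave the only other circle of the top 10 with control reads, 68 in HD-SB and 4 in the control, the highest control value of the set. Below it were SH2B3, an adaptor that restrains cytokine receptor signalling (57), FKBP8, an immunophilin-family protein of the mitochondrial outer membrane (50), and POLR2A, the largest subunit of RNA polymerase II (44). CACTIN, a spliceosome-associated protein, had 39 HD-SB reads and DOT1L, the histone H3 lysine 79 methyltransferase, had 34. The last 5 named were not listed in the control.

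**Figure D2:**
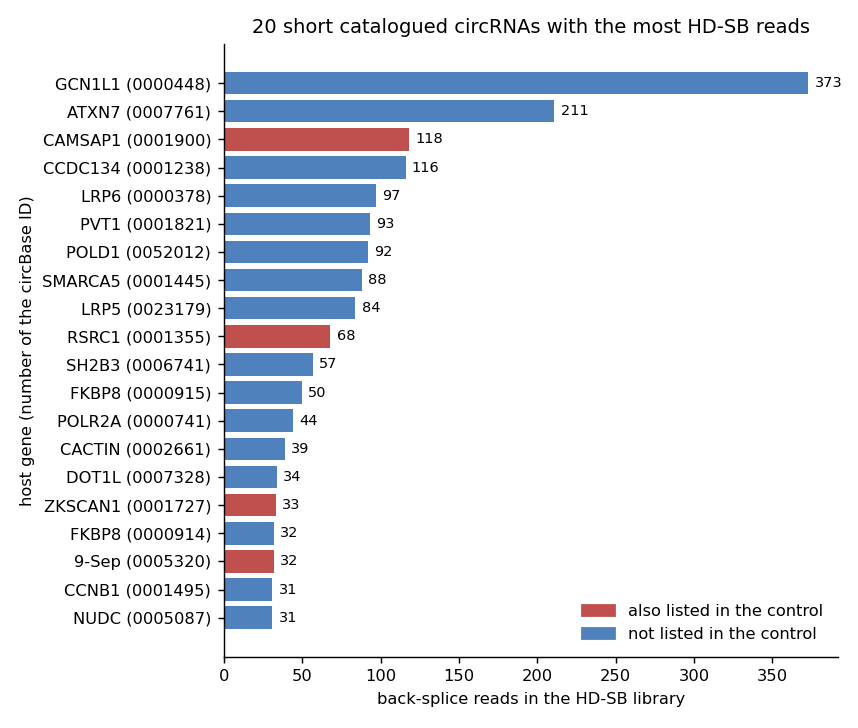
The 20 short catalogued circRNAs with the most back-splice reads in the HD-SB library (bar length, reads), named by host gene and the number of the circBase identifier, with those also listed in the control in red. GCN1L1 with 373 reads and ATXN7 with 211 stand apart, and 4 of the 20 were also listed in the control.

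The control listed 10 members, each with 2 to 4 reads. They ranged from circles not listed in HD-SB to CAMSAP1, near the top of it, and 4 of them were among the 20 members with the most HD-SB reads. AFF1, a component of the super elongation complex, had 3 control reads, and UBAP2, a ubiquitin-associated protein, had 2. Neither was listed in HD-SB, where the lowest listed value was also 2 reads. PCMTD1, a methyltransferase-domain protein, had 3 control and 5 HD-SB reads. In these 3 circles the control count was close to the HD-SB count in spite of the gap in total back-splice reads.

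Others had many more HD-SB reads. GAPVD1, which regulates Rab5 in endocytosis, had 3 control and 13 HD-SB reads, and CDYL, a chromodomain corepressor, had 3 and 16. ZKSCAN1, a zinc finger gene known for its circRNA in liver, had 3 and 33, and 9-Sep had 2 and 32. With RSRC1 (4 and 68) and CAMSAP1 (2 and 118), HD-SB reads thus ran from 5 to 118 among the shared circles named here while control reads stayed between 2 and 4.

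A control listing takes at least 2 of 91 reads, 2.20% of that library, whereas none of the 8 shared members held more than 1.02% of HD-SB. The listing minimum alone therefore fixed that all 8 had a share at least 2-fold lower in HD-SB, as had 100% of the 22 circRNAs of the whole table listed in both, and nothing is read from that count. Nor is anything read from the intervals, which excluded equal shares for 6 of the 8 and for 90.9% of the 22. The ratios are given as a description of listed circles, with intervals for counting error. The ratio of the control share to the HD-SB share was 76.3 (interval 11.8 to 392) for PCMTD1. It was 29.3 (5.36 to 107) for GAPVD1 and 23.8 (4.45 to 83.3) for CDYL. It was 11.6 (2.27 to 36.8) for ZKSCAN1 and 7.48 (1.98 to 20.04) for RSRC1. It was 7.95 (0.923 to 31.1) for 9-Sep and 2.15 (0.258 to 7.96) for CAMSAP1.

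**Figure D3:**
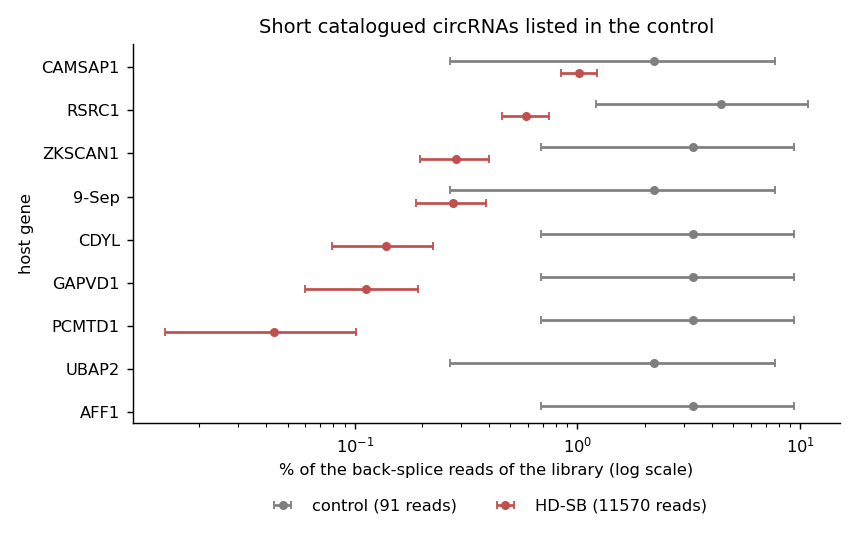
Share of the back-splice reads of the library (horizontal axis, %, log scale) for 9 of the 10 short catalogued circRNAs listed in the control, by host gene, with the control in grey and HD-SB in red and bars as 95% Clopper-Pearson intervals for counting error. Only CAMSAP1 and 9-Sep have overlapping bars, and UBAP2 and AFF1 have no red point because they were not listed in HD-SB.

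Spans ran from 215 to 1996 bp, with a median of 841 and quartiles of 490.5 and 1303. The shortest were from SRSF4, a serine and arginine rich splicing factor (215 bp, 4 HD-SB reads), DHX34, a helicase of nonsense-mediated decay (218 bp, 3 reads), and GSE1 (219 bp, 4 reads). DCBLD2 (228 bp, 2 reads) and AFMID, an enzyme of tryptophan breakdown (253 bp, 6 reads), came next. At the other end were CANX, the ER chaperone calnexin (1928 bp, 6 reads), PPFIA1 (1954 bp, 8 reads), ZNF516 (1967 bp, 5 reads), BAZ2A (1969 bp, 3 reads) and RPH3AL (1996 bp, 7 reads). None of these 10 was listed in the control. Just beyond the 2000 bp limit were TPCN1 (2003 bp, 7 reads), TIPARP (2006 bp, 9 reads) and FUK (2008 bp, 5 reads), with read counts like those just inside it.

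Median abundance hardly varied with span within the set, while the read totals leaned to members under 1000 bp. The median was 6 HD-SB reads in the 91 members under 500 bp, 5.5 in the 120 of 500 to under 1000 bp, 5 in the 83 of 1000 to under 1500 bp, and 6 in the 65 from 1500 bp. Total HD-SB reads were 1115, 1715, 749 and 541 in that order, and control reads 3, 11, 7 and 6. Of the 1715, GCN1L1 (750 bp) gave 373 and ATXN7 (638 bp) gave 211, so the lean rests in good part on these circles. The HD-SB totals were 27.1, 41.6, 18.2 and 13.1% of the reads of the set, from 25.3, 33.4, 23.1 and 18.1% of its members. The members listed in the control had a median span of 1014 bp.

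The spans were those of whole exons. The host of 354 members was found in GENCODE 29, and for 344 of them (97.2%) the span equalled, to the base, the distance from the start of one exon to the end of the same or a later exon of the host. With 1 bp added to or taken from the span, 7.34% matched. The exact match held for 94.8% of longer catalogued circles and for 78 of 104 short circles with no identifier. The match is by length and not by position, since none of the 344 lay at its deposited coordinates in GRCh38, and 336 of the 344 fitted a single place in the host. The values on exon content are for these 336, each in 1 representative transcript. PVT1 and LRP5, which fitted several places, are not among them.

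Most of these circles held few exons. There were 68 of 1 exon, 183 of 2 (54.5%), 62 of 3, 16 of 4 and 7 of 5 or 6. Circles of 2 exons held 1987 HD-SB reads and those of 3 held 950, of which GCN1L1 gave 373. All 10 members listed in the control had 1 or 2 exons, 3 and 7 of them. Most of the 336 had too, 20.2% with 1 and 54.5% with 2, so nothing is read from the 10. Among longer catalogued circles 3 exons was the commonest number, with 258 of 708.

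The RNA in the ring was nearly as long as in the longer circles although the span was far shorter. The exon bases of a short catalogued circle had a median of 338 nt (quartiles 298.75 and 404.25, range 136 to 1967), if all introns inside are removed. The median was 380 nt in the longer catalogued circles, whose median span in HD-SB was 8192.5 bp. Thus RSRC1 (hsa_circ_0001355) spanned 1889 bp with 322 nt of exon, CAMSAP1 spanned 1446 bp with 425 nt, and LRP6 was a single exon of 394 nt. Whether an intron is kept in a circle cannot be told from these counts.

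**Figure D4:**
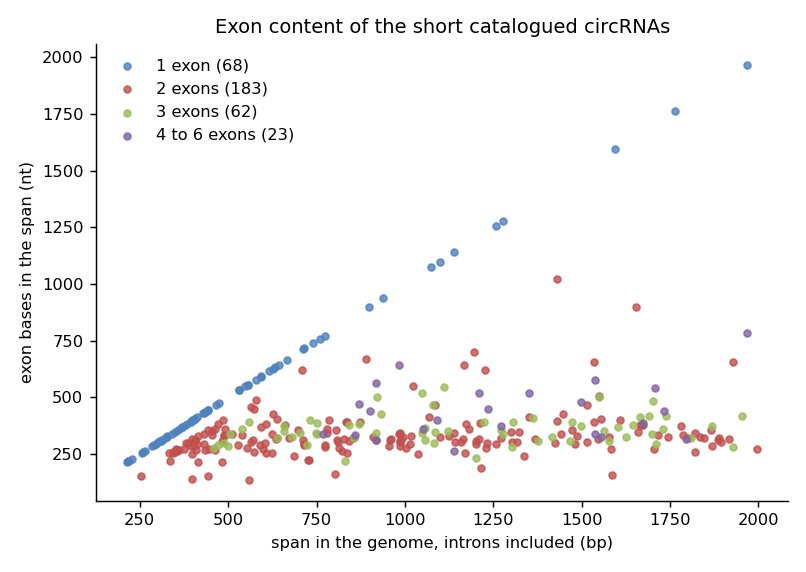
Exon bases inside the span (vertical axis, nt) against the span in the genome with introns (horizontal axis, bp) for 336 short catalogued circRNAs, coloured by number of exons. Single-exon circles lie on the line where both are equal, and most circles of 2 or more exons stay near 250 to 500 nt at any span.

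The first circularised exon was often the second of its transcript. This held for 102 of 336 members (30.4%), with 1370 HD-SB reads or 33.3% of those of the set, and for 33.3% of longer catalogued circles. CAMSAP1, CCDC134, LRP6, POLD1, RSRC1, SH2B3 and CACTIN were among them. No member contained the first exon, which has no splice site before it. GCN1L1, which began at exon 29, SMARCA5 at exon 15 and DOT1L at exon 17 lay deep in their genes.

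Coding sequence alone made up 276 of the 336 (82.1%). A further 49 held the end of the 5′ UTR and the start codon, with 883 HD-SB reads, among them ATXN7, CCDC134, POLD1, RSRC1, SH2B3, PCMTD1 and ZKSCAN1. In 3 members the stop codon and 3′ UTR were included, 1 was 5′ UTR alone, and 7 were placed in a transcript with no coding sequence, among them POLR2A. The coding-only circles had a length divisible by 3 in 106 of 276 cases (38.4%), against 38.7% in longer catalogued circles.

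The introns on both sides had a longer median than the pooled introns of the transcripts used. Their median was 3594 bp upstream and 3353 bp downstream over 335 members, against 1275.5 bp for all introns of these transcripts. Both flanks exceeded that 1275.5 bp in 236 of 335. The pool includes the flanks themselves and gives more weight to transcripts with many introns. Flanks were not compared with the other introns of their own transcript. In the 102 members that begin at exon 2 the upstream flank is the first intron. Flanks of longer catalogued circles had medians of 10229.5 and 10027 bp, against 2626 bp for all introns there. The members differed widely: CDYL was flanked by introns of 114905 and 43135 bp, ATXN7 by 14090 and 39153 bp, and GCN1L1, the most abundant, by 741 and 1060 bp.

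Chromosome 19 carried the most members. It had 52 of 359 (14.5%) against 4.09% of the rest of the table, and 53.1% of all circRNAs on that chromosome belonged to the set, against 24.2% overall. Per 100 protein-coding genes it had 3.53 members, while the whole genome had 1.80. For the rest of the table it had 3.13 per 100 genes, below the genome-wide 5.65. Chromosome 17 had 32 members (8.91% against 5.51% of the rest) and chromosome 16 had 26 (7.24% against 7.73% of the rest, so no larger a share). Members came from 23 chromosomes, with 6 on X and none on Y.

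The members on chromosome 19 were mostly modest circles. Its 52 members came from 45 host names and held 589 HD-SB reads, of which the POLD1 circle hsa_circ_0052012 had 92, and none was listed in the control. Chromosome 12 held more reads, 629, but 373 of them were GCN1L1, and chromosome 3 held 398, of which ATXN7 had 211. The 10 members listed in the control lay on chromosomes 1, 3, 4, 6, 7, 8, 9 and 17, with 3 on chromosome 9.

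**Figure D5:**
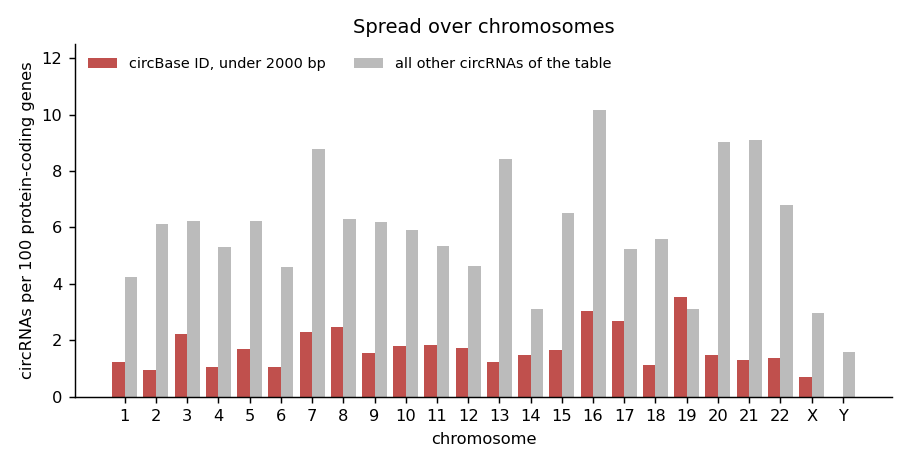
Number of circRNAs per 100 protein-coding genes of each chromosome (vertical axis), for short catalogued circRNAs (red) and all others of the table (grey). Chromosome 19 has the most short catalogued circRNAs, 3.53 per 100 genes, and is the only chromosome where they outnumber the others.

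Circles on chromosome 19, inside and outside the set, came from transcripts with shorter introns and exons richer in GC than circles elsewhere. For the 50 members matched there, the median intron of the transcripts was 883 bp and the median GC content of the circle 60.9%. The rest of the table on that chromosome was close to this, with 1040 bp and 59.9%. The 286 members on other chromosomes had 1335 bp and 52.1%, and the circRNAs of the rest of the table on other chromosomes 2417 bp and 48.1%. Over the whole set the median GC content was 53.6%, against 47.7% in longer catalogued circles and 58.9% in short circles with no identifier. When the 336 were put into 4 groups of 84 by GC content, 28 of the group highest in GC were on chromosome 19 and none of the lowest was. Median HD-SB reads from the lowest to the highest group were 4, 5, 7 and 6.5, and 2, 4, 3 and 1 members were listed in the control. The part of intron length and GC content in the chromosome counts was not tested.

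The 359 members came from 339 host names, nearly all used once. There were 320 hosts with 1 member, 18 with 2 and 1, FKBP8, with 3. For 62 hosts (18.3%) the table also held circRNAs outside the set. Members with several host names numbered 13, and 3 had small-RNA names alone, with 37 reads. FKBP8 gave 86 HD-SB reads in all: 50 from exons 3 to 4, and 32 and 4 from circles of exons 5 to 6 that shared one end and differed by 3 bp at the other (836 and 833 bp). POLD1 likewise had circles of 634 and 637 bp over exons 2 to 3, with 92 and 7 reads. In 18 pairs of circles from the same host, both circles fitted a single place in it. Of these pairs 5 overlapped and shared an end and 13 lay apart, such as the NUDC circles of exons 3 to 4 (3 reads) and 5 to 6 (31 reads). Pairs from EXOSC1, RGL3 and the host named snoU13,Y_RNA are not in these counts. By deposited ends, the EXOSC1 circles (560 and 1334 bp) and the snoU13,Y_RNA circles (904 and 1075 bp) also overlapped and shared an end, and the RGL3 circles lay apart.

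Host genes were grouped by lists of known function, which placed 137 of the 359 members (38.2%) in at least 1 list. The lists are incomplete, so other members of the same function were left out of them. Each count, share and order below is of listed genes alone. Chromatin regulators were the largest functional group by reads, with 16 members and 423 HD-SB reads, 10.3% of those of the set, and 2 members listed in the control. They were 4.46% of members and 4.71% of the rest of the table. After ATXN7, SMARCA5 and DOT1L came CDYL2 (25 reads), CDYL (16) and the acetyltransferase CREBBP (9). The median of the group was 6 reads, the same as for the whole set, so its total rests on the first few.

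Translation had only 2 members but 381 reads, because it holds GCN1L1. Its other member was EEF2K, the kinase that slows elongation (8 reads). The Wnt, TGF-beta, BMP, Hippo and Notch list had 5 members and 198 reads, most of them from LRP6 and LRP5. The others were AXIN1, a scaffold of the beta-catenin destruction complex (8), the Notch-pathway ligase MIB1 (5) and RNF43, which removes Wnt receptors (4). The 2 lists were 0.557% and 1.39% of members, against 0.799% and 1.69% of the rest of the table. No member of either list was listed in the control, but only 10 of all 359 members were.

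The RNA splicing, processing and binding list had 15 members and 177 reads, led by RSRC1. It also held SAFB2 (25), LARP4B (15), RBM6 (15) and METTL3, the m6A RNA methyltransferase (14). Members outside it included CACTIN (39 HD-SB reads), EXOSC1 (17 and 4 in its circles), RBM41 (14) and MATR3 (12). Cytoskeleton, adhesion and motors had 13 members and 239 reads, led by CAMSAP1 and 9-Sep, both listed in the control, and then the myosin MYO9B (25), TNS3 (18) and the dynein heavy chain DYNC1H1 (14). Transcription factors, coactivators and RNA polymerase II subunits, taken as 1 list, had 7 members and 103 reads. The polymerase subunit POLR2A (44) and ZKSCAN1 were ahead of NFIX (8).

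The DNA replication and repair list had 9 members and 132 reads. Its POLD1 circles had 99, followed on the list by the damage kinase ATM (11 reads in 2 circles). Members outside the list included RECQL4 (11 HD-SB reads), CHAF1A (11), MRE11A (9), PIF1 (6), RFC4 (5) and MCM3 (4). Cell cycle, mitosis and centrosome had 10 members and 118 reads. Its leaders were CCNB1, cyclin B1 of mitotic entry (31), the cohesin subunit SMC3 (27) and the centrosomal scaffold PCNT (18). These 2 lists were 2.51% and 2.79% of members, against 2.31% and 2.66% of the rest of the table. No member of either list was listed in the control, but only 10 of all 359 members were.

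The ubiquitin list, of ligases, proteases and ubiquitin-associated proteins such as UBAP2, had 12 members with 81 reads. UBAP2 was its only member listed in the control. By HD-SB reads the first was the date-form host 6-Mar (28), whose span matched exons of MARCH6, a ligase of the ER membrane, then HUWE1 (12) and FBXW7 (8). Glycosylation and ER folding had 5 members with 88 reads, led by the glucosidase subunit GANAB (29) and the glycosyltransferases MGAT5 (27) and FUT8 (16). Kinases, phosphatases and small GTPases had 10 members and 79 reads, with PTPRA (19), EPHB4 (14) and MAP2K1 (10) first.

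The other lists were small. Membrane trafficking had 8 members and 63 reads, 2.23% of members against 4.17% of the rest of the table, with AGAP3 (14), GAPVD1 and TBC1D14 (11). The mitochondrial list had 5 members and 40 reads, led by the fusion GTPase MFN2 (20), MTHFD1L (7) and MTO1 (5). Members outside it included SDHAF2 (12 HD-SB reads), COA1 (11), UQCRH (9), MRPL2 (6) and IDH3G (5). Nuclear transport had 3 members and 31 reads and IPO7 (15) first, then XPO6 (8). Apoptosis and stress response had 6 members and 30 reads, among them NQO1 and CASP2 (6 each). Lipid metabolism had 3 members and 13 reads, among them ACACA, of fatty acid synthesis (2). The transporter list had 3 members and 9 reads, TRPM4 (4), XPR1 (3) and VDAC3 (2). The solute carriers SLC43A1 (7 HD-SB reads), SLC15A4 (7) and SLC45A4 (5) were members of the set but not on that list. There were also 9 members with ZNF names, with 70 reads.

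Hosts of widely studied circRNAs, a list that overlaps the others, had 21 members with 601 HD-SB reads, 14.6% of the reads of the set, and a median of 14 reads. They were 5.85% of members and 3.20% of the rest of the table, and 5 of the 10 members listed in the control belonged to them. CAMSAP1, PVT1, SMARCA5, RSRC1, FKBP8 and ZKSCAN1 led the list.

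The series title names miR-204-5p, so the exon sequence of the 336 circles was searched for its seed match, AAAGGGA, on the strand of the RNA and across the back-splice junction. The mature miRNA, from RefSeq, is shown with its seed (bases 2 to 8) in capitals.
hsa-miR-204-5p: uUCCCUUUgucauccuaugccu

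A match was found in 13 of the 336 (3.87%), against 3.95% of longer catalogued circles and 4.55% of all circRNAs searched, so the share of circles with a match was close to that elsewhere. Per 1000 bases of exon the set held 0.128 matches, against 0.0893 in longer catalogued circles and 0.114 over all circRNAs searched, and these differences were not tested. The 13 held 17 matches and 290 HD-SB reads, and 3 of them, CAMSAP1, CDYL and AFF1, were listed in the control. The complement TCCCTTT, which is not a match, occurred in 6 members. HPS5 had 3 and 2 matches in its 2 overlapping circles (6 and 3 reads), CCDC57 had 2 (3 reads), and NUDC had 1 (31 reads). The matches of the more abundant or control-listed circles are shown with the match in capitals.
CAMSAP1 match: ccctgtcccggAAAGGGAtctatgtgatg
CDYL match: ggaaaaataaaAAAGGGAagacagagtat
AFF1 match: taattcctgacAAAGGGAgcagcattcca
NUDC match: acttccggctgAAAGGGAaggacatggtg
SMARCA5 match: agagaaaaacaAAAGGGAggcttgtggat

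In SMARCA5 the match began at base 266 of the 269 in the ring and so ran over the back-splice junction, from the end of exon 16 into the start of exon 15. It was the only one of the 13 first matches to do so, and these letters are not contiguous in the transcript from which the exons were taken. A match of letters is a description and not a binding site.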

How the data were processed

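Total RNA of SW620 cells was freed of ribosomal RNA and digested with RNase R before library preparation, per the labels' protocols. The submitters' processing notes list FastQC, HISAT2 2.1.0 and GRCh38 and give no role for them. Which program called the circRNAs, and whether duplicates were removed, is not stated there. The authors' deposited columns, headed TPM per the file headers, hold CPM of back-splice reads: in each library 100% of listed values were a whole number of equal steps (tolerance 0.01 of a step). The value 0.001 was treated as not listed. Amplified copies may be counted more than once, so intervals cover counting error only.

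Reads, spans and hosts were taken from the table with pandas 2.3.3, and intervals (95%, Clopper-Pearson; for ratios, conditional on the sum of reads) with scipy 1.17.1. No test was run, since each group had 1 library. Hosts were matched to GENCODE 29 by symbol (342), RefSeq synonym (9) or date form (3), and spans to distances between exon ends, using transcripts of GRCh38. The deposited coordinates are not those of GRCh38 and are not printed. Results were recomputed with other span limits, minimum reads, host and identifier rules, pseudocounts and transcript sets. GC content, flanking introns, coding class, first exon and miR-204-5p matches were analyses added with the data in view. The scripts were tested on simulated data.

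Named circRNAs were the 15 with most HD-SB reads, all listed in the control, hosts with 3 or more members, the 5 shortest and 5 longest, and up to 3 per host list; some of these are not reported here. Others were named after their values were seen: circles from the same host, matches of miR-204-5p, further list members and members of like function outside a list. Members and lists were chosen with earlier results of these data known.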

Additional observations from a re-analysis of the deposited data

How the results depend on the processing

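The share of HD-SB reads on short catalogued circRNAs, 35.6%, was 24.5% with a span limit of 1000 bp and 42.9% with 3000 bp. It was 38.9% among circRNAs of at least 5 reads, 42.5% among those with a circBase identifier, 37.0% with a single host name, 33.5% without GCN1L1 and 24.2% by number of circRNAs. The control share, 29.7%, was 15.4% with the 1000 bp limit and 0% at 5 reads or more. With the 1000 bp limit 211 members were listed in HD-SB, 5 in the control and 5 in both, and with at least 3 reads 6 were listed in the control and 5 in both. The top 10 held 42.0% of member reads with the 1000 bp limit and 27.2% with 3000 bp, and the top 50 held 56.7%. Exon ends matched 7.34% of spans changed by 1 bp. In 25 other recomputations of these summaries, values stayed within their interval, or within 1.5 times for counts and for the median reads (5 or 6, against 6). All 24 values for single circRNAs stayed within their interval, but these intervals are wide, so this is a weak check. For example, the PCMTD1 ratio of 76.3 (interval 11.8 to 392) fell to 29.956 with a pseudocount 4 times larger. The 8 members with a share at least 2-fold lower in HD-SB were 7 at 4-fold and 10 with a pseudocount, which adds AFF1 and UBAP2; the listing minimum fixes this direction. With 91 control reads, a circRNA under about 2% of the library may go unlisted, and leaving out a replicate was not possible with 1 library per group. No paired analysis was possible because there was a single library on either side.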
